A study of Mus musculus with 12 samples.

Results

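The interferon regulatory factors (IRFs) are transcription factors, and the 8 IRF genes described here are Irf1, Irf2, Irf3, Irf4, Irf5, Irf7, Irf8 and Irf9. They were chosen by symbol: each has 1 row among the 24538 gene rows of the deposited expression table, and all 8 had a mean deposited log2 value of at least 3, the minimum set here for testing a gene, which 12436 genes met. RNA was sequenced from CD4+ T cells of C57BL/6 mice, prepared from spleen together with peripheral lymph nodes, activated, and cultured with IL-6 plus a blocker of TGF-β receptor signalling. That treatment was common to all groups. The groups were wild type (WT) and CD4cre;Smad4fl/fl (KO) cells collected 3 h or 12 h into the treatment; each of the 4 groups had 3 libraries. The floxed Smad4 allele is cut by a Cre recombinase under Cd4 control, which acts in T cells, and the age of the mice is not given in the labels. Since no label says that the 3 libraries of a group came from separate animals or cultures, p-values measure the spread between these libraries.

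All IRFs carry an N-terminal DNA-binding domain that recognises repeats of GAAA. IRF3, IRF5 and IRF7 lie below receptors of viral nucleic acid and drive interferon genes once phosphorylated, IRF9 is part of the interferon-activated complex ISGF3, and IRF1 is itself induced by interferons and induces antigen-processing genes, often with IRF2 as its antagonist at the same sites. IRF4 and IRF8 bind DNA weakly alone and pair with ETS or BATF-JUN factors. In mouse T helper cells IRF4 is required for Th17 differentiation, and IRF8 has been described as a restraint on it.

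The 8 genes lie on 6 chromosomes. In GENCODE annotation of GRCm38, the mm10 build, Irf8 spans chr8:120736358-120756694 and Irf4 chr13:30749226-30766976 on the plus strand, and Irf7 spans chr7:141262706-141266481 on the minus strand. RefSeq sequence (GRCm38.p6) upstream of a transcript start matched all 8 genes, in 11 windows of 250 bases. Windows of 3 genes are printed because they hold interferon- or STAT-type motifs, and Irf8 is the gene that differed between genotypes. Capitals mark matches, found on both strands, to the GAS motif TTCNNNGAA bound by STAT dimers, the interferon-stimulated response element (ISRE) GAAANNGAAA, or the ETS-IRF composite element (EICE) GGAANNGAAA.
Irf8, chr8:120736108-120736357, plus strand: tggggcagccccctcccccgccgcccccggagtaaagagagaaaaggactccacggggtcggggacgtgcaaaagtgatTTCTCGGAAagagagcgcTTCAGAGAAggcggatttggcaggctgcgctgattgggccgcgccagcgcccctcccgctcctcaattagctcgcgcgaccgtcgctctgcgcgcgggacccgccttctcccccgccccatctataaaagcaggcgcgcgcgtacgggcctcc
Irf1, chr11:53769764-53770013, plus strand: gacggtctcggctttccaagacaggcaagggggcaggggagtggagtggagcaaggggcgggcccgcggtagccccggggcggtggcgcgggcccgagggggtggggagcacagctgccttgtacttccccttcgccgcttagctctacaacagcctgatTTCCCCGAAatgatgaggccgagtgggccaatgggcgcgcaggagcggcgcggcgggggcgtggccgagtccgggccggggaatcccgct
Irf2, chr8:46739495-46739744, plus strand: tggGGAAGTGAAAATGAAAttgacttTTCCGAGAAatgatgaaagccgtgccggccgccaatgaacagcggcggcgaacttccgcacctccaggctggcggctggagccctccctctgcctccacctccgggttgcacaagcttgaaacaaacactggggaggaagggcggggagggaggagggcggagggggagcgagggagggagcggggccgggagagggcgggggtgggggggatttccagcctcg
The Irf8 window held 2 GAS matches, starting at positions -171 and -153 counted from the transcript start. The Irf1 window held 1 GAS match, at -90. The Irf2 window held a GAS match at -224 and an EICE match at -247 whose last bases overlap an ISRE match at -241. GAS matches were thus present in 3 of the 11 windows, against 7.02% of all 32851 RefSeq windows of this length. ISRE and EICE matches were each present in 1 of 11 windows, against 2.98% and 2.30% of all windows, and the AP-1 motif TGANTCA in 0 of 11, against 6.75%. These are letter matches in short windows, and binding was not measured.

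Before the results, some facts on the libraries bear on all of them. The labels call the mice female, but the 4 libraries numbered replicate 2, 1 in each group, had deposited log2 values of 4.55 to 5.70 for Xist and 12.3 to 12.7 for the Y-linked Ddx3y, whereas the other 8 libraries had 15.1 to 16.3 and 2.39 to 2.77. Smad4 itself lay between 11.49 and 11.71 in all 12 libraries and did not differ between genotypes at 3 h (0.00 ± 0.06 SE on the log2 scale, adjusted p = 0.993) or 12 h (0.02 ± 0.06, adjusted p = 1.00, limma). A floxed allele can lose part of a gene, so the level of the whole gene says nothing on whether the genotype labels are right. The first principal component of the libraries held 80.9% of the variance. Genes of CD4 T cells were high throughout: the summed level of 12 such markers (log2) had group means of 18.22 and 18.25 in WT and KO cells at 3 h and 18.02 and 18.11 at 12 h. The sum hides moves of single markers. At an adjusted p under 0.05 in limma, 4 were higher and 6 lower at 12 h than at 3 h in WT cells. In KO cells 4 were higher and 5 lower. Of all genes, 34.3% were higher and 33.6% lower in each genotype.

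At 3 h in WT cells the IRF transcripts covered a wide range of levels. Levels per kilobase used the union of all annotated exons, not the expressed transcript, so the order of close members depends on that choice. Per kilobase of exon, Irf4 stood at 14.96 ± 0.06 (log2 value, SD, n = 3), rank 83 of the 12146 tested genes with a known exon length. Irf8 followed at 12.53 ± 0.06 (rank 480), then Irf3 at 11.07 ± 0.08 (rank 1521), Irf1 at 10.27 ± 0.06 (rank 2532), Irf9 at 9.32 ± 0.02 (rank 4111), Irf7 at 8.42 ± 0.10 (rank 5661), Irf2 at 8.08 ± 0.22 (rank 6167) and Irf5 at 4.47 ± 0.35 (rank 9923). By 12 h in WT cells Irf4 was still at rank 133 on the same scale, while Irf8 stood at rank 4387 and Irf7 at rank 10616, below Irf5 at rank 9967. The order of the remaining members in WT cells at 12 h was Irf3 (rank 1928), Irf8, Irf1 (rank 5464), Irf9 (rank 6095) and Irf2 (rank 6155). In KO cells at 12 h Irf8 was at rank 2878.

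**Figure D1:**
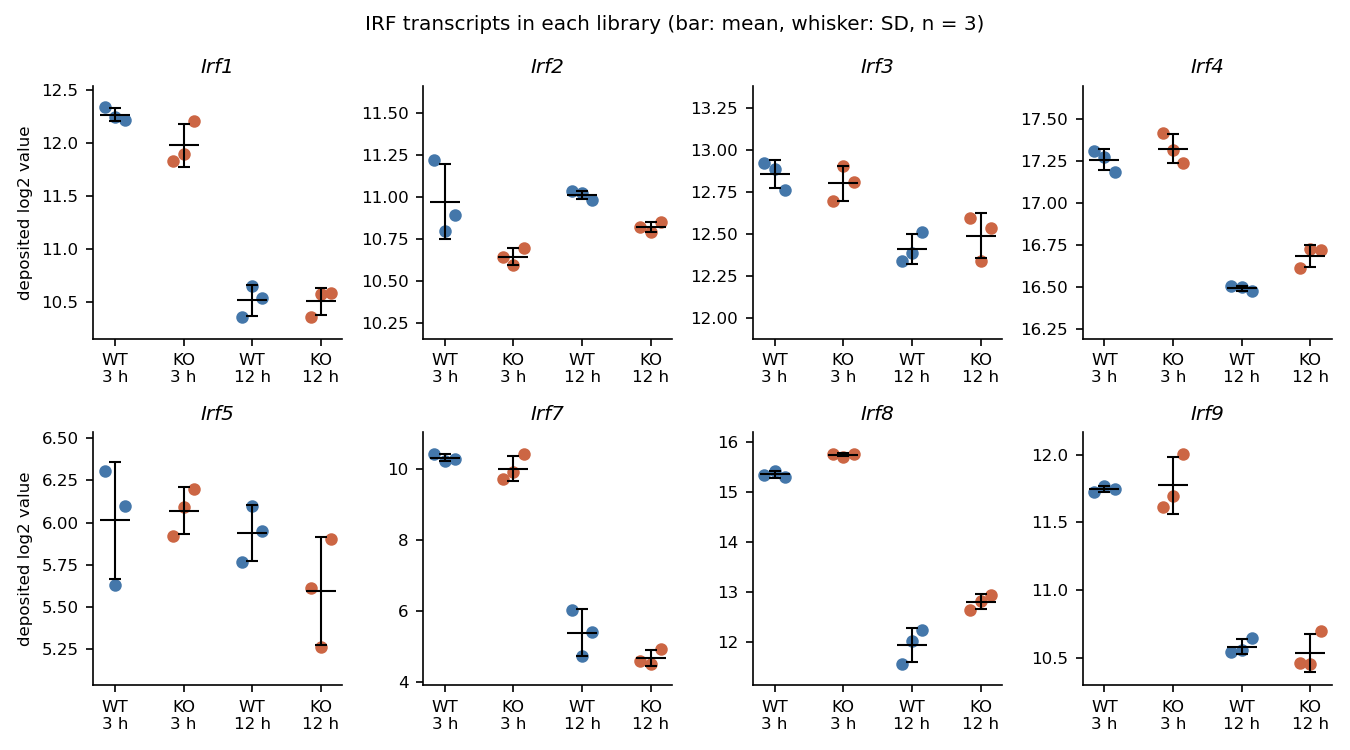
Deposited log2 value (vertical axis) of each IRF gene in the 12 libraries, by genotype and time; points are libraries, bars are means and whiskers SD (n = 3). Irf8 is the gene whose 4 groups do not touch, from 15.74 in KO cells at 3 h to 11.94 in WT cells at 12 h, and Irf7 has the widest range, from a mean of 10.33 in WT cells at 3 h to 4.68 in KO cells at 12 h.

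KO cells had a higher Irf8 transcript level, and of the 8 IRF genes Irf8 was the one called between genotypes, at 12 h. Irf8 encodes a factor known from myeloid and B cells that is also made in activated T cells. At 12 h its deposited log2 values were 11.56, 12.02 and 12.24 in the WT libraries and 12.65, 12.82 and 12.95 in the KO libraries. Every KO library was above every WT library. The means were 11.94 ± 0.35 and 12.81 ± 0.15 (SD, n = 3 each), a difference of 0.86 ± 0.12 (SE, 95% interval 0.61 to 1.12) or 1.82-fold, with an adjusted p of 0.00222 (limma on all 12436 genes, Benjamini-Hochberg adjustment). This placed it at percentile 99.8 of the differences of all genes tested. In the KO against WT comparison at 12 h, 1 of 8 IRF genes was called at an adjusted p under 0.05, against 0.667% of all genes (0.499% higher and 0.169% lower in KO cells). Without the 4 replicate 2 libraries the Irf8 difference was 0.90 with an adjusted p of 0.0837, and with all rows of the table tested, however low, its adjusted p was 0.0723. In bulk RNA, more transcript per cell and more cells that hold the transcript cannot be told apart.

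At 3 h, the earlier of the times sampled, Irf8 was higher than at 12 h. The WT libraries had 15.33, 15.42 and 15.30, and the KO libraries 15.77, 15.71 and 15.75. The groups again did not overlap, with the KO libraries higher by 0.39 ± 0.12 (95% interval 0.13 to 0.65), or 1.31-fold, but the adjusted p was 0.193 and the difference was not called. The call depended on the fit: the adjusted p was 0.0367 when the 6 libraries of 3 h were fitted alone and 0.0328 without WT 12h replicate 1. Whether the genotype difference at 12 h exceeded that at 3 h was tested by an interaction term, which gave 0.47 ± 0.17 (95% interval 0.11 to 0.84) with an adjusted p of 0.998 and an unadjusted p of 0.0148, and 0.28 without WT 12h replicate 1. With limma, 0 of 8 IRF genes and 0.00% of all genes were called for the interaction, and 1 IRF gene and 497 of 12436 genes had an unadjusted p under 0.05.

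Irf4, the Th17-promoting relative of Irf8, was the most abundant IRF transcript in every group. At 12 h the WT libraries had 16.50, 16.50 and 16.48 and the KO libraries 16.61, 16.72 and 16.72. The groups did not overlap, and the KO mean was higher by 0.19 ± 0.07 (95% interval 0.05 to 0.34), or 1.14-fold, which was not called (adjusted p = 0.434, unadjusted p = 0.0128, limma). At 3 h the WT values of 17.31, 17.28 and 17.19 and the KO values of 17.41, 17.31 and 17.24 overlapped, with a difference of 0.06 ± 0.07 (95% interval -0.08 to 0.21, adjusted p = 0.876).

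Among the IRF genes not tied to Th17 cells, Irf2, the antagonist of IRF1, was lower in every KO library than in every WT library at both times, without a call. At 3 h its values were 11.22, 10.80 and 10.90 in WT and 10.64, 10.60 and 10.70 in KO libraries, a difference of -0.33 ± 0.09 (95% interval -0.52 to -0.14, adjusted p = 0.118, limma). At 12 h they were 11.03, 11.02 and 10.98 in WT and 10.82, 10.79 and 10.85 in KO libraries, a difference of -0.19 ± 0.09 (95% interval -0.38 to 0.00, adjusted p = 0.785). At 3 h the Irf2 difference was -0.41 with an adjusted p of 0.0273 without WT 3h replicate 2, and -0.20 with an adjusted p of 0.431 without WT 3h replicate 1. Irf1 was also lower in every KO library at 3 h, with values of 12.34, 12.24 and 12.22 in WT and 11.83, 11.90 and 12.20 in KO libraries. Its difference of -0.29 ± 0.10 (95% interval -0.50 to -0.08) was not called (adjusted p = 0.280), and at 12 h it was -0.01 ± 0.10 (95% interval -0.23 to 0.20).

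Irf7, which amplifies type I interferon production, had KO values of 9.72, 9.93 and 10.42 at 3 h against WT values of 10.45, 10.25 and 10.30. At 12 h the KO values were 4.61, 4.51 and 4.94 and the WT values 6.04, 4.72 and 5.41. The groups overlapped at both times, and the KO minus WT differences of -0.31 ± 0.26 at 3 h (95% interval -0.87 to 0.25) and -0.71 ± 0.26 at 12 h (95% interval -1.27 to -0.15) were not called, with adjusted p of 0.843 and 0.501 in limma. The Irf7 difference at 12 h was -0.38 without WT 12h replicate 1, and that at 3 h was -0.16 without KO 3h replicate 1 and -0.51 without KO 3h replicate 3. For Irf3 the genotype differences were -0.05 ± 0.08 at 3 h and 0.08 ± 0.08 at 12 h. For Irf9 they were 0.03 ± 0.09 and -0.05 ± 0.09, and for Irf5 0.06 ± 0.22 and -0.34 ± 0.22. None of these was called, and for Irf3 the 95% intervals lay within -0.22 to 0.24 and for Irf9 within -0.25 to 0.23. The interval was wider for Irf5, the least abundant member at 3 h, and reached from -0.81 to 0.12 at 12 h, where the difference was -0.18 without KO 12h replicate 2.

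Over the family, KO and WT libraries did not overlap for 3 of 8 IRF genes at 3 h and for 3 of 8 at 12 h, against 11.6% and 12.8% of all genes. At 3 h, 0 of 8 were called against 1.05% of all genes (0.298% higher and 0.748% lower in KO cells; 130 genes, or 200 with the replicate number as a block). An unadjusted p under 0.05 was found for 3 of 8 at 3 h and 3 of 8 at 12 h, against 9.09% and 6.37% of all genes (limma). The median KO minus WT difference of the 8 genes was -0.01 at 3 h and -0.03 at 12 h on the log2 scale, beside -0.00 and -0.01 for all genes, since members differed in sign.

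**Figure D2:**
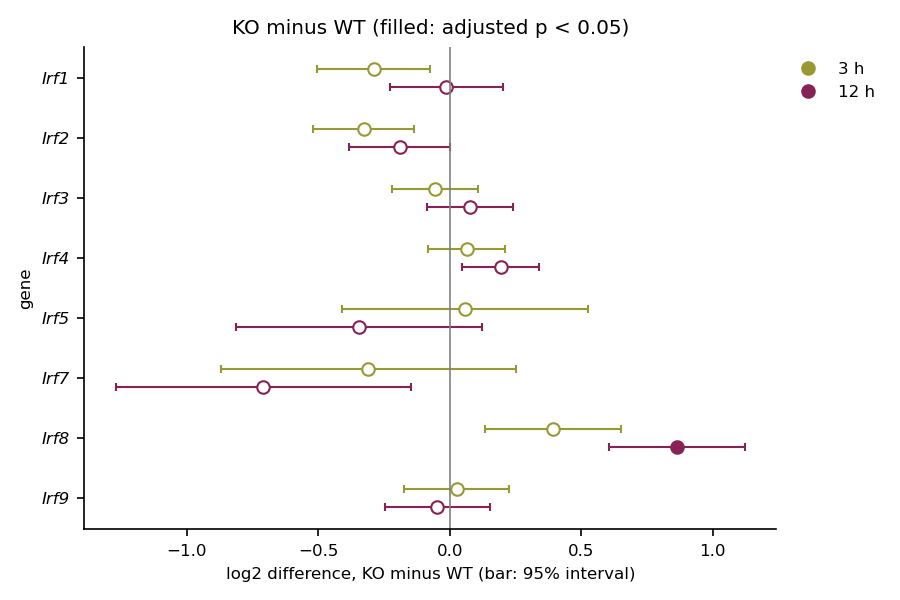
Difference KO minus WT (log2 scale, horizontal axis) of each IRF gene at 3 h and 12 h, with 95% intervals from limma. Irf8 at 12 h, at 0.86, is the called difference; Irf1, Irf2 and Irf8 at 3 h and Irf4 and Irf7 at 12 h have intervals that leave out 0 but were not called after adjustment over all genes.

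Between 3 h and 12 h the same 6 IRF genes fell in both genotypes: Irf7, Irf8, Irf1, Irf9, Irf4 and Irf3. Lower at 12 h and called were 6 of 8 IRF genes in each genotype, against 33.6% of all genes in WT and 33.6% in KO cells, and 0 of 8 were called higher, against 34.3% in each. Called in either direction were 67.9% of all genes in WT and 68.0% in KO cells, so a call between the times was common. Libraries of the 2 times did not overlap for 6 of 8 IRF genes in WT and 8 of 8 in KO cells, against 72.7% and 69.5% of all genes. The median difference of the 8 genes was -0.96 in WT and -0.93 in KO cells, beside -0.00 for all genes in both.

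Irf7 fell most. In WT cells the 3 h values of 10.25 to 10.45 gave way to 4.72 to 6.04 at 12 h, a difference of -4.94 ± 0.26 or 30.8-fold (adjusted p = 2.07e-10, limma), at percentile 0.0281 of the differences of all genes. In KO cells the difference was -5.34 ± 0.26 or 40.5-fold (adjusted p = 9.40e-11). Irf9, the DNA-binding part of ISGF3, fell from 11.72, 11.76 and 11.75 to 10.54, 10.56 and 10.65 in WT cells, a difference of -1.16 ± 0.09 (adjusted p = 2.34e-08). In KO cells Irf9 fell from 11.61, 11.70 and 12.01 to 10.46, 10.46 and 10.70, a difference of -1.23 ± 0.09 or 2.35-fold. Irf3, whose protein is made before any signal and is then activated by phosphorylation, fell least of the 6. Its WT values were 12.92, 12.88 and 12.76 at 3 h and 12.34, 12.39 and 12.51 at 12 h, a difference of -0.44 ± 0.08 or 1.36-fold (adjusted p = 8.99e-05). In KO cells the Irf3 values were 12.69, 12.90 and 12.81 and then 12.60, 12.34 and 12.53, a difference of -0.31 ± 0.08 (adjusted p = 0.00196) that was not called without the 4 replicate 2 libraries (-0.19, adjusted p = 0.0950).

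Irf1 fell from 12.22 to 12.34 at 3 h to 10.37, 10.66 and 10.54 at 12 h in WT cells, a difference of -1.74 ± 0.10 or 3.35-fold (adjusted p = 4.83e-10, limma). In KO cells the 12 h values were 10.36, 10.58 and 10.59, and the difference was -1.47 ± 0.10. Irf2, in contrast, was not called: its difference was 0.04 ± 0.09 in WT (adjusted p = 0.702) and 0.18 ± 0.09 in KO cells (adjusted p = 0.0930), where every 12 h library was above every 3 h library. Per kilobase of exon, the level of Irf1 (log2) in WT cells was thus 10.27 against 8.08 for Irf2 at 3 h, and 8.53 against 8.13 at 12 h.

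Irf8 fell by 3.41 ± 0.12 on the log2 scale in WT cells, or 10.6-fold (adjusted p = 2.71e-12, limma), and fell by 2.94 ± 0.12 in KO cells, or 7.66-fold (adjusted p = 1.46e-11). The WT difference lay at percentile 0.511 of all genes. Its group levels ran in the order KO at 3 h, WT at 3 h, KO at 12 h and WT at 12 h, and no neighbouring groups overlapped. Irf4 fell by 0.76 ± 0.07 in WT (1.70-fold, adjusted p = 7.95e-08) and fell by 0.64 ± 0.07 in KO cells (1.55-fold, adjusted p = 6.40e-07). Irf5 values at 3 h were 6.31, 5.63 and 6.10 in WT and 5.92, 6.09 and 6.20 in KO libraries. At 12 h they were 5.77, 6.10 and 5.95 in WT and 5.61, 5.26 and 5.90 in KO libraries. The Irf5 changes with time of -0.07 ± 0.22 in WT (adjusted p = 0.777) and -0.48 ± 0.22 in KO cells (adjusted p = 0.0661, and -0.31 without KO 12h replicate 2) were not called. The library kit does not mark strand, and 14.1% of the exonic bases of Irf5 overlap those of Tnpo3 on the opposite strand, so reads of the pair there could not be told apart. For the other members the exonic overlap with neighbouring genes was at most 3.40%.

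**Figure D3:**
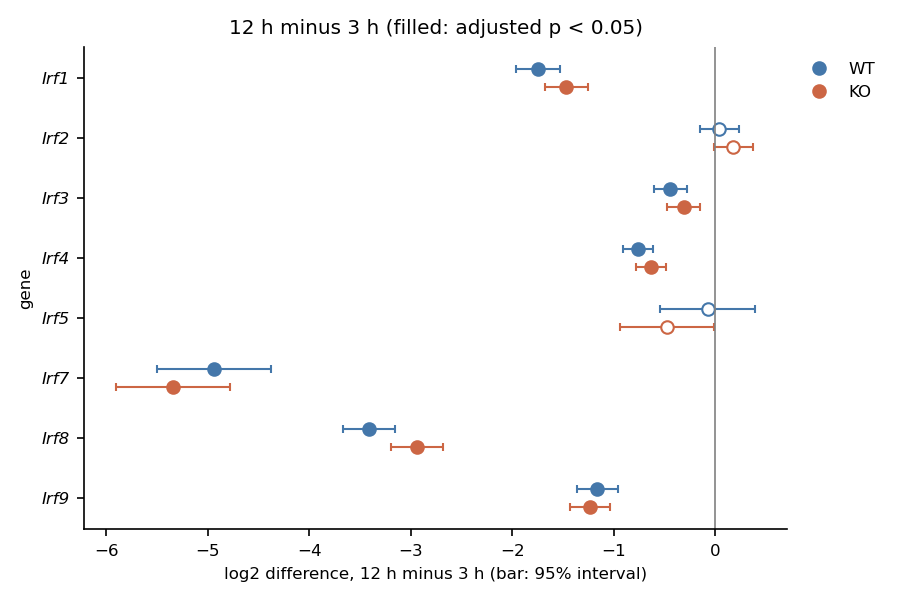
Difference 12 h minus 3 h (log2 scale, horizontal axis) of each IRF gene in WT and in KO cells, with 95% intervals from limma. Irf7 lies near -5, Irf8 near -3, Irf1 and Irf9 between -1 and -2, Irf2 near 0, and Irf5 at -0.07 in WT and -0.48 in KO cells.

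Because Irf8 fell further than Irf4, the distance between the pair widened with time. Within each library the Irf4 level per kilobase exceeded that of Irf8 by 2.50, 2.38 and 2.41 (log2) in WT cells at 3 h and by 2.17, 2.13 and 2.01 in KO cells at 3 h. At 12 h the gap was 5.47, 5.001 and 4.76 in WT and 4.49, 4.43 and 4.30 in KO libraries. The gap was smaller in every KO library than in every WT library at both times. With these exon lengths, Irf4 exceeded Irf8 by 5.39-fold in WT and 4.30-fold in KO cells at 3 h, and by 33.7-fold and 21.2-fold at 12 h. The size of these folds depends on the lengths used, while differences in the gap between groups do not. The mean gap of KO less WT was -0.33 at 3 h and -0.67 at 12 h. Each had p = 0.1 in a two-sided exact permutation test, the smallest p that 3 against 3 libraries allow. Groups that do not overlap always give that p, so the test adds nothing to the separation. Each gap difference is the Irf4 difference less the Irf8 difference given above, and is not a separate result.

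**Figure D4:**
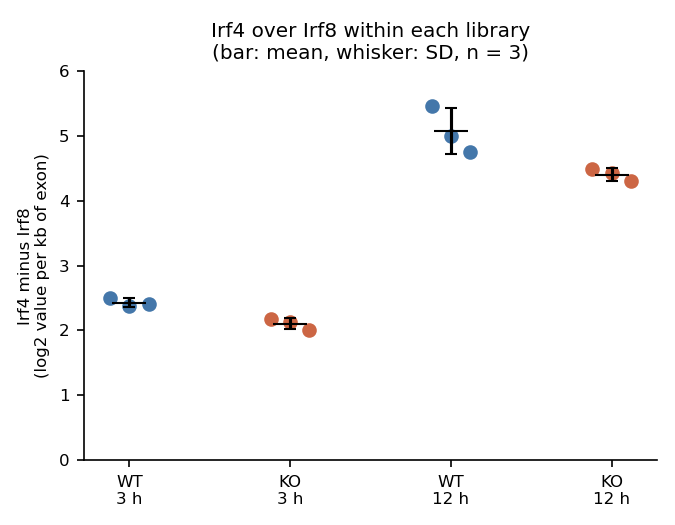
Irf4 minus Irf8 within each library (log2 value per kilobase of exon, vertical axis), by genotype and time; points are libraries, bars are means and whiskers SD (n = 3). The gap runs from 2.01 to 2.50 at 3 h and from 4.30 to 5.47 at 12 h, with KO libraries below WT libraries at each time.

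Genes around the family were read from lists of its ligands, receptors, partners and targets. With time, 33.6% of all genes fell and 34.3% rose in each genotype. Called in either direction were 67.9% in WT and 68.0% in KO cells, so calls for most genes of a list were common. Between genotypes, 0.298% of all genes were higher and 0.748% lower in KO cells at 3 h, and 0.499% and 0.169% at 12 h. Upstream of the interferon response, Ifng was the 1 interferon gene of 9 listed that passed the minimum level; its difference between the times was -1.22 ± 0.36 in WT (adjusted p = 0.00704, limma; -0.75 and 0.0476 without WT 3h replicate 3) and -1.28 ± 0.36 in KO cells (adjusted p = 0.00513). Of the 11 receptors, kinases, STATs and their inhibitors, 6 fell and 1 rose in WT cells and 5 fell and 3 rose in KO cells, with median differences of -0.58 and -0.09. Socs1, a feedback inhibitor of JAK kinases, fell in both, with differences of -3.31 ± 0.19 in WT and -2.73 ± 0.19 in KO cells, as did Usp18, an inhibitor of the type I receptor, with -2.02 ± 0.26 and -2.04 ± 0.26. Between genotypes the called gene was Ifngr1, a chain of the interferon-γ receptor, lower in KO cells at 3 h by -1.35 ± 0.28 (adjusted p = 0.0319). That call was lost when WT 3h replicate 1 or 3, KO 3h replicate 1 or 2, or KO 12h replicate 2 was left out, with adjusted p of 0.0524 to 0.136, and with no filter, no trend, only the compared groups or array weights, with adjusted p of 0.128 to 0.227. Of 16 tested sensors, adaptors and kinases upstream of IRF3, IRF5 and IRF7, 11 fell and 4 rose with time in each genotype, with median differences of -0.47 and -0.52. Ddx58, which encodes the RNA sensor RIG-I, fell 22.2-fold in WT and 36.8-fold in KO cells, and Ifih1, which encodes MDA5, fell 8.15-fold and 7.09-fold. Ikbke, a kinase of IRF3 and IRF7, was lower in KO cells at 3 h by -1.06 ± 0.22 (adjusted p = 0.0355), a call lost when any 3 h library but WT 3h replicate 2, or replicate 2 of either 12 h group, was left out (adjusted p of 0.0525 to 0.153) and under the same other settings (0.0843 to 0.240).

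Target genes of ISGF3, IRF7 and IRF1 fell with time and had no genotype calls. Over all genes 33.6% fell and 34.3% rose in each genotype. Of 22 antiviral genes, 21 fell and 1 rose in each genotype, with median differences of -2.93 in WT and -3.08 in KO cells. Rtp4, an interferon-inducible gene, fell, with differences of -6.02 ± 0.30 in WT and -5.98 ± 0.30 in KO cells, and so did Oas2, an oligoadenylate synthetase, with -4.99 ± 0.30 and -5.26 ± 0.30. Of 14 antigen-processing genes, 12 fell and 1 rose in WT cells and 11 fell and 1 rose in KO cells, with median differences of -1.08 and -1.03. Tapbp, which loads peptides on class I molecules, fell, with differences of -2.05 ± 0.07 in WT and -1.95 ± 0.07 in KO cells. Between genotypes 0 of 22 and 0 of 14 were called at either time in limma (at 12 h, 1 antiviral gene with the replicate block and 1 without KO 12h replicate 3; at 3 h, 1 antigen-processing gene without WT 3h replicate 2), with median differences of -0.14 and -0.21 for the antiviral genes and -0.07 and -0.04 for the antigen-processing genes at 3 h and 12 h.

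The listed DNA-binding partners and cofactors of IRF4 and IRF8 did not move as 1 group. Of 14 tested, 10 fell and 4 rose in WT cells and 9 fell and 4 rose in KO cells, with median differences of -0.88 and -0.87. Over all genes 33.6% fell and 34.3% rose in each genotype. Mean levels of Batf, Jun, Junb and Jund were lower at 12 h in both genotypes, and those of Ets1, Etv6, Def6 and Nfatc2 were higher. Junb, a partner of BATF, fell, with differences of -1.75 ± 0.15 and -1.38 ± 0.15, and so did Stat3, the transducer of the IL-6 signal, with -1.53 ± 0.08 and -1.37 ± 0.08. Nfatc2, a calcium-regulated factor, rose by 1.57 ± 0.08 and 1.39 ± 0.08. Between genotypes 0 of 14 were called at 3 h and 1 at 12 h, against 1.05% and 0.667% of all genes. At 3 h the count was 2 with the replicate block or median centring. It was 1 without WT 3h replicate 2 or without the 4 replicate 2 libraries. At 12 h Ikzf3, an Ikaros-family factor, was higher in KO cells by 0.46 ± 0.07 (adjusted p = 0.00641, limma). That call was not kept without the 4 replicate 2 libraries (adjusted p = 0.237), with no filter on low values (0.0773) or with no trend of the prior with the level (0.0694). Spi1, which encodes the ETS partner PU.1, was below the minimum level.

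Of 12 tested genes that bind or need IRF4 in T helper cells, 1 was higher in KO cells at 3 h and 4 at 12 h. Over all genes 0.298% and 0.499% were higher. In this list 0 were lower, and the median differences were 0.01 and 0.22. Calls in either direction at 3 h numbered 2 without WT 3h replicate 2 and 2 without the 4 replicate 2 libraries. The genes higher at 12 h included Ahr, a ligand-dependent factor of Th17 cells, higher by 1.32 ± 0.19 (adjusted p = 0.00222, limma), Maf, a regulator of Il10 and Il21, by 1.30 ± 0.16 (adjusted p = 0.000672), and Rora, a nuclear receptor of Th17 cells, by 1.16 ± 0.18 (adjusted p = 0.00347). Without the 4 replicate 2 libraries the calls at 12 h numbered 2, and the adjusted p was 0.0805 for Ahr and 0.123 for Rora. The Rora call was also lost with no filter (adjusted p = 0.108) and with no trend (0.0595). With time 12 of 12 fell in WT and 10 of 12 in KO cells, against 33.6% of all genes in each, with median differences of -1.35 and -1.17. Prdm1, which encodes the repressor BLIMP-1, fell, with differences of -2.99 ± 0.24 in WT and -3.34 ± 0.24 in KO cells, and so did Il17f, a Th17 cytokine gene, with -2.82 ± 0.23 and -1.86 ± 0.23.

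**Figure D5:**
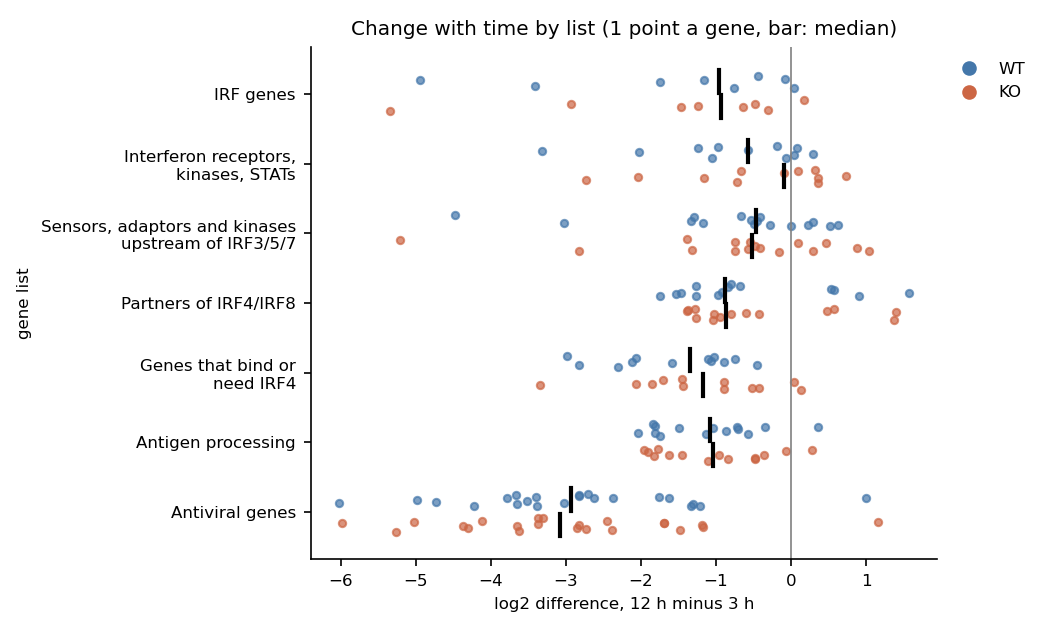
Difference 12 h minus 3 h (log2 scale, horizontal axis) of the IRF genes and of the lists around them, in WT and KO cells; each point is a gene and each bar a list's median. The antiviral genes have the lowest medians, -2.93 in WT and -3.08 in KO cells.

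Irf8, Irf7, Irf5 and Irf4 are also expressed by B cells and by myeloid and dendritic cells, whose markers were measured beside them. Of 16 B cell markers, 10 fell and 0 rose with time in each genotype, against 33.6% and 34.3% of all genes. Of the same markers, 0 were called between genotypes at either time (limma). Their summed level (log2) was 12.12 to 12.38 in WT and 11.72 to 12.09 in KO libraries at 3 h, and 10.14 to 10.46 in WT and 9.75 to 10.06 in KO libraries at 12 h. Of 16 myeloid and dendritic markers, 8 passed the minimum level; 6 of them fell with time in each genotype (3 in WT cells without WT 3h replicate 3 or WT 12h replicate 1), 0 were called between genotypes, and their summed level over all 16 was 9.02 to 9.15, 9.18 to 9.36, 7.77 to 8.12 and 7.80 to 7.94 in WT and KO at 3 h and then WT and KO at 12 h. Of 10 markers of CD8 T and NK cells, 7 passed the minimum level; 3 were lower and 1 higher at 12 h in WT cells (2 in all without WT 12h replicate 2), 2 lower and 1 higher in KO cells, and 0 were called between genotypes. No marker of these lists was at 0 in all libraries. The part of these cells in the IRF differences between times and between genotypes was not tested.

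The 12 libraries also served to rank, for each IRF gene, the named genes with the most similar pattern, by Pearson's r over all libraries and with no test. The libraries share the split by time, so many genes reach a high r: for Irf8, 2139 of 11357 named genes had an r of at least 0.9. Closest to Irf8 were Cish (r = 0.996), an inhibitor of cytokine signalling, Smad3 (0.995), a TGF-β signal transducer, and Rnf149 (0.995). Closest to Irf4 were Zscan18 (0.992), Smad3 (0.991) and Rnf19a (0.991), and the r between Irf4 and Irf8 was 0.987. Irf7 followed Prdm1 (0.998), Sema4a (0.996) and Fos (0.996). Irf9 followed Irgm1, Trim30a and Uimc1 (0.994 each), of which the first pair are interferon-inducible genes, and Irf1 followed Gimap8 (0.996), Uimc1 (0.995) and Parp14 (0.994). Irf3 had Cxxc1 (0.985), Epn1 (0.975) and Srp68 (0.973). For Irf2, 6 genes reached an r of 0.9, led by Dgka (0.952), Pink1 (0.926) and Nemp2 (0.909), and for Irf5 none did, the closest being Anxa6 at 0.823, Wls at 0.807 and Zrsr1 at 0.794.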

How the data were processed

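RNA-seq was done on 12 libraries of mouse CD4+ T cells (TruSeq V2, Illumina HiSeq, per the labels' protocols). The authors deposited 1 table of log2 normalized expression values; the submitters' processing notes name Trim Galore, STAR, featureCounts, DESeq2 and mm10, while the sources used here give no transform, tool version or annotation. Of its rows, 5663 are 0 in every library, 0 rows are 0 in some only, and values run down to -2.37, a form that transforms shrinking low genes can give; differences of low genes may then be understated, which was not tested. Depth is unknown, no counting interval was computed, and 0 columns were unmapped. In 26 rows the gene name had become a date.

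Group means were fitted over all libraries in R 4.3.3 with limma 3.58.1 (eBayes with trend, two-sided) on the 12436 genes with a mean of at least 3, with Benjamini-Hochberg adjustment over all of them and calls at an adjusted p under 0.05. Folds are 2 to the power of a log2 difference. Levels per kilobase subtract the log2 of the length of the union of all annotated GENCODE exons (GRCm38). This union can exceed the expressed transcript: for Irf7 it is 1 block of 3776 bases, the whole span of the gene. The fit was also run on simulated data with independent noise in each library. Those data lacked the spread shared by same-numbered libraries, so the run does not bear on the choice of an unpaired fit. The text names all 8 members and the 3 most similar genes per member. Of a list it names up to 4 called genes per comparison, those with the largest differences. Marker genes and genes below the minimum level are given as values. List genes named outside this rule are Batf, Jund, Etv6 and Def6, by direction only, and Ifit2 and Psmb8, picked because they rose while most of their lists fell. Some genes that meet the rule are not reported here. Members and lists were chosen with earlier results of these data known.

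Replicate numbers of the labels were checked for pairing by the correlation of same-numbered libraries' deviations from their group means. It was 0.194, 0.402 and 0.347 for the genotypes at 3 h and 0.175, 0.500 and 0.186 at 12 h. For the times it was 0.211, 0.432 and 0.207 in WT cells and 0.0637, 0.368 and 0.0892 in KO cells. The highest unlike-numbered correlations were 0.0128, 0.150, 0.0693 and 0.187 in the same order. Same-numbered values all exceeded these except in KO cells, where the numbers were not taken as pairs. The highest values were those of the replicate 2 libraries, which differ in Xist and Ddx3y, so pairing elsewhere is not settled. The main fit and the permutation test treated libraries as unpaired, with the replicate block as an alternative fit.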

Additional observations from a re-analysis of the deposited data

How the results depend on the processing

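Over 21 alternatives (20 for the interaction), 805 of 832 member results kept direction and call, 3 lost a call, 8 gained one and 16 changed sign, each of the 16 uncalled before and after. For KO against WT at 12 h the count of called IRF genes was 0 with no filter on low values and 0 without the 4 replicate 2 libraries, where fewer libraries were fitted, and 1 each time a single library was left out; over all alternatives the adjusted p of Irf8 ranged from 0.000335 to 0.0837 and its difference, with 1 library left out, from 0.67 to 1.01. For KO against WT at 3 h the count was 1 with only the compared groups fitted (Irf8) and 0 to 1 with 1 library left out (1 without WT 3h replicate 2, Irf2, and 1 without WT 12h replicate 1, Irf8). The 6 calls between times in WT cells held under every alternative. In KO cells Irf3 lost its call without the 4 replicate 2 libraries (-0.19), Irf5 gained one in 4 of 21 alternatives and Irf2 in 1. With a replicate block no IRF call changed (Irf8 at 12 h, adjusted p = 0.000366; at 3 h, 0.0841), and all genes called numbered 200 against 130 at 3 h, 114 against 83 at 12 h and 3 against 0 for the interaction; between times in KO cells, where the numbers were not taken as pairs, the block gave 8517 against 8453 calls. Changes of sign were as follows. Array weights gave -0.0151 for Irf9 at 3 h and 0.0647 for Irf5 between times in WT cells. Median centring, which shifts all genes by -0.11 in WT and -0.13 in KO cells between times, gave -0.0673 for Irf2 in WT cells. Without the 4 replicate 2 libraries Irf5 at 3 h was -0.145, Irf1 at 12 h 0.0204, Irf2 between times in WT cells -0.0497 and the Irf5 interaction 0.0471. With 1 library left out, Irf5 at 3 h ranged from -0.13 to 0.20, Irf9 at 3 h from -0.0913 to 0.11, Irf1 at 12 h from -0.0895 to 0.0630, Irf2 between times in WT cells from -0.0456 to 0.17, Irf5 there from -0.27 to 0.0731 and the Irf9 interaction from -0.15 to 0.0446. Counts over all genes moved more: at 3 h from 130 to 9 with no trend, 14 with no filter, 32 with only the compared groups, 54 with array weights and 22 (without KO 3h replicate 1) to 261 (without WT 3h replicate 2) with 1 library left out; at 12 h from 83 to 39 with no trend, 40 with no filter, 167 with array weights and 22 without the 4 replicate 2 libraries; and for the interaction to 3 with no filter, 2 with quantile normalization and 28 without WT 3h replicate 2. The causes were not tested.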

Other observations

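The IRF2-binding proteins are corepressors that join IRF2 on DNA, and all 3 passed the minimum level. None was called between genotypes at 3 h or 12 h. Irf2bp2 fell with time by 0.77 ± 0.12 in WT (adjusted p = 3.57e-05) and by 0.45 ± 0.12 in KO cells (adjusted p = 0.00392), while Irf2bpl rose by 0.29 ± 0.12 in KO cells (adjusted p = 0.0461), a call that 16 of 21 alternative settings did not keep, 9 of them with a single library left out (adjusted p of 0.0524 to 0.217).

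Single genes went against their lists with time. Ifit2, an interferon-induced gene, rose by 1.00 in WT and 1.15 in KO cells while the 21 other antiviral genes fell. Psmb8, an immunoproteasome subunit gene, rose in both genotypes while most antigen-processing genes fell. Its mean log2 value went from 11.98 at 3 h to 12.34 at 12 h in WT cells and from 11.97 to 12.25 in KO cells.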
